A study of Zea mays with 8 samples.

Results

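The genes described here supply ADP-glucose, the sugar nucleotide from which starch chains are built, to the starch-storing plastids (amyloplasts) of the maize kernel. They are the sucrose synthase genes sh1 (shrunken1, Zm00001d045042) and sus1 (Zm00001d047253), the ADP-glucose pyrophosphorylase genes sh2 (shrunken2, Zm00001d044129) and bt2 (brittle2, Zm00001d050032), and the carrier gene bt1 (brittle1, Zm00001d015746). The 5 genes were taken by gene ID from a table of 37965 gene IDs, where all 5 were found. All 5 also passed the filter on low counts, which left 22014 genes to test. The names come from the list of members, since the count table gives IDs only. As a coarse check of the names, each of the 5 IDs lay on the chromosome on which RefSeq places that symbol in the assembly Zm-B73-REFERENCE-NAM-5.0 of the line B73. This check cannot tell a member from other genes of its chromosome. Nor can it tell sh1 from sus1, which both lie on chromosome 9.

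RNA was sequenced from endosperm of the maize inbred line A188 at 19 days after pollination, enriched for the endosperm adjacent to the scutellum (EAS). The EAS is the layer of the seed's storage tissue that faces the embryo. One group of 4 libraries came from wild type kernels, and the other group of 4 from kernels of a KIL1 KIL2 knockout, in which both of these NAC-family transcription factor genes are lost. The labels name neither the alleles nor the number of plants or ears behind a library. The p-values therefore set a difference between genotypes against the spread between these libraries, which may be technical in part.

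In the cereal endosperm, sucrose arriving from the mother plant is cleaved by sucrose synthase into fructose and UDP-glucose. UDP-glucose is converted to glucose 1-phosphate, from which ADP-glucose pyrophosphorylase, an enzyme of large and small subunits, makes ADP-glucose. In maize endosperm most of this enzyme is cytosolic, so its product has to be carried across the amyloplast envelope. Loss of sh1, sh2, bt1 or bt2 gives the shrunken or brittle kernels, poor in starch, that named these genes.

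The libraries held 47143888 to 65625013 counts in the knockout and 58330218 to 80577963 in wild type, so even the least counted member, sus1, had 4381 to 9071 counts per library. Counting error is therefore small beside the spread between libraries. TMM scaling factors, which correct for differences in library composition, were 0.929 to 0.975 in the knockout and 1.02 to 1.07 in wild type. The 100 most abundant genes other than the members took 27.6% to 30.3% of the counts in the knockout and 22.8% to 24.5% in wild type. Both measures moved with genotype, and no test separated their part in the results below. They were looked at only through refits with other scalings. For the share of counts taken by the 5 genes, those 100 genes were also left out. With library totals and no scaling factor, the median log2 fold change of all tested genes moved from -0.003 to -0.12, and the same 4 members still rose, by 1.67-fold or more. Markers of the EAS, the embryo, the aleurone and the transfer layer, KIL1 and KIL2 themselves and the other genes of sucrose and starch metabolism were not analysed here, because 0 of the 37965 IDs matched the reference table of gene names. The tissue and genotype labels were therefore not checked against markers.

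In the knockout, 4 of the 5 genes (sh1, sh2, bt2 and bt1) rose by 1.81-fold to 2.23-fold, and sus1 did not pass the test. Each of the 4 had an adjusted p of 0.000383 or lower (quasi-likelihood test of edgeR, adjusted over all tested genes by Benjamini-Hochberg, threshold 0.05). Of the 5 genes 0 fell, by edgeR, DESeq2 and limma-voom alike, and 0 fell at an unadjusted p below 0.05. Among all 22014 genes tested, 8.51% rose and 10.1% fell by the same rule (1873 and 2213 genes). Scaled by library totals alone, these counts were 1032 and 4743. Abundant genes rose more often than others in these libraries, with 19.1% of the 1000 most abundant genes (7.2% of them fell) and 52% of the 100 most abundant. By mean normalised count, sh2 ranked 18, sh1 28, bt2 37, bt1 112 and sus1 1918, so the share of 52% is the nearest background for the first 3 of these. The median log2 fold change was 1.01 over the 5 members and -0.003 over all tested genes. The median rise among the 1873 genes that rose was 1.32-fold, and 241 of them rose more than bt2. In bulk RNA, more transcript per cell and more cells that express a gene cannot be told apart.

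**Figure D1:**
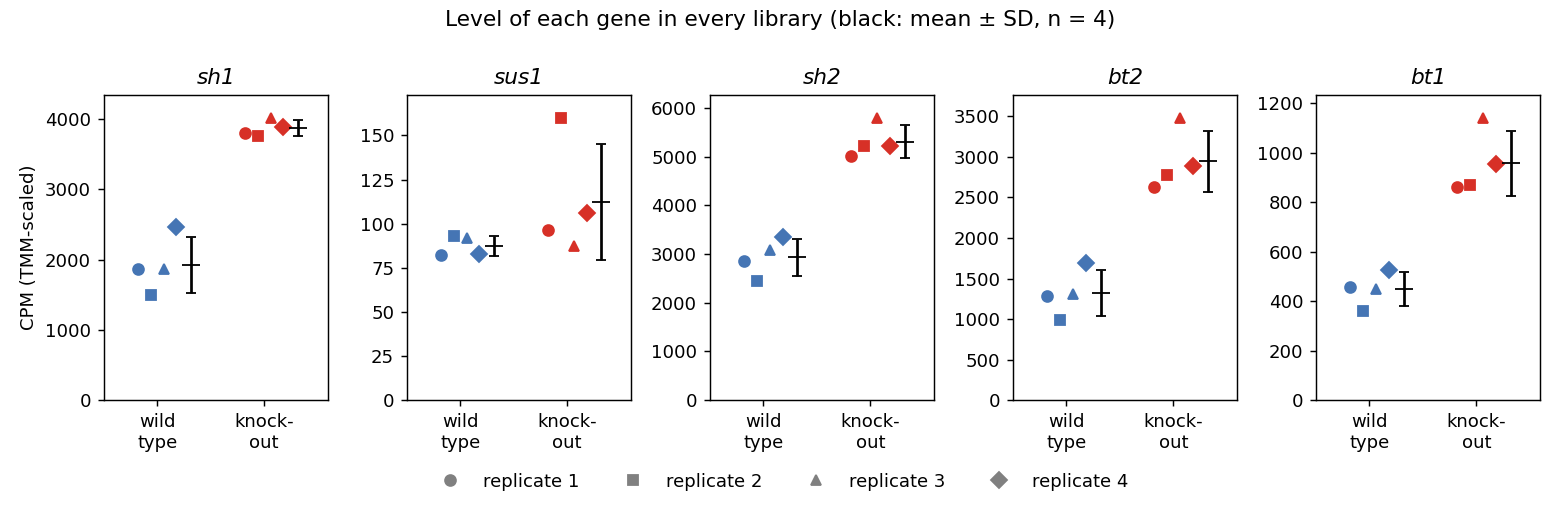
Normalised counts (CPM, counts scaled to a common library total with TMM factors) of the 5 genes in every library, wild type in blue and knockout in red, with a marker shape per replicate number. Black bars give the mean and SD of 4 libraries. For sh1, sh2, bt2 and bt1 every knockout library lies above every wild type library, whereas for sus1 the groups overlap.

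The gene sh1 encodes the main sucrose synthase of the endosperm and stands on chromosome 9 (12000340 to 12006216 on the plus strand of the A188 annotation). Its normalised counts (CPM, scaled to a common library total with TMM factors) in the 4 knockout libraries were 3804, 3765, 4021 and 3886, and in the 4 wild type libraries 1868, 1497, 1869 and 2460.2. Values are given here and below in the order of the replicate numbers 1 to 4. The groups did not overlap: the lowest knockout library was 1.53 times the highest wild type library. Knockout libraries averaged 3869 ± 113 CPM and wild type libraries 1924 ± 398 CPM (SD, n = 4). This was a rise of 2.01-fold, or 1.01 ± 0.12 (SE) on the log2 scale, with an edgeR adjusted p of 0.000318. Knockout libraries differed little among themselves, with a coefficient of variation of 2.93%, against 20.7% in wild type. That difference in spread was not tested.

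The gene sus1 encodes another sucrose synthase and lies far from sh1 on the same chromosome (128013130 to 128019987, minus strand). Knockout libraries measured 96.4, 160.04, 87.1 and 106 CPM, and wild type libraries 82.2, 93.0, 91.9 and 82.9 CPM. The groups overlapped through knockout replicate 3 alone, since every other knockout library lay above every wild type library. Knockout replicate 2 stood above the other 7 libraries. The means were 112 ± 32.7 CPM and 87.5 ± 5.71 CPM (SD, n = 4). The estimated ratio was 1.28-fold with a 95% interval from 1.01-fold to 1.63-fold (0.36 ± 0.15, SE, on the log2 scale). Its edgeR p was 0.04 before and 0.136 after adjustment, which misses the threshold. Single libraries moved this value. Without knockout replicate 2 the log2 fold change was 0.14 (edgeR adjusted p = 0.243), and without knockout replicate 3 it was 0.47 and passed the threshold (edgeR adjusted p = 0.0496).

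The gene sh2 encodes the large subunit of the endosperm ADP-glucose pyrophosphorylase, an enzyme whose activity in plants is set by allosteric effectors. It lies on chromosome 3 (227409063 to 227418440, minus strand). It was the member with the most counts, at 5008, 5219, 5797 and 5207 CPM in knockout libraries and 2862, 2442, 3072 and 3348 CPM in those of wild type. Each knockout library was above each wild type library. The means of 5308 ± 340.4 CPM and 2931 ± 382 CPM (SD, n = 4) correspond to a rise of 1.81-fold, or 0.86 ± 0.09 (SE) on the log2 scale. The edgeR adjusted p was 0.000191.

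The gene bt2, on chromosome 4 (64704254 to 64710025, plus strand), encodes the small subunit of the same enzyme. Its level was 2633, 2775, 3484 and 2893 CPM in the 4 knockout libraries, against 1289.7, 994, 1308 and 1697 CPM in the 4 of wild type. The lowest knockout library was 1.55 times the highest wild type library. The means were 2946 ± 374 CPM and 1322 ± 289 CPM (SD, n = 4). The rise of 2.23-fold was the largest point estimate of the 5 genes (1.16 ± 0.14, SE, on the log2 scale, edgeR adjusted p = 0.000383), but its 95% interval, from 1.79-fold to 2.77-fold, overlaps those of sh1, sh2 and bt1.

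The gene bt1 encodes the carrier that moves ADP-glucose across the amyloplast envelope. It lies on chromosome 5 (118840050 to 118842172, minus strand). The 4 knockout libraries stood at 859, 871, 1141 and 953 CPM and the 4 wild type libraries at 459, 362, 449 and 528 CPM. These groups were the farthest apart of the 5 genes, with the lowest knockout library of bt1 at 1.63 times the highest wild type library. From 449 ± 68.2 CPM in wild type (SD, n = 4) the gene rose to 956 ± 130.3 CPM in the knockout, or 2.13-fold. On the log2 scale this was 1.09 ± 0.12 (SE), at an edgeR adjusted p of 0.000196.

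**Figure D2:**
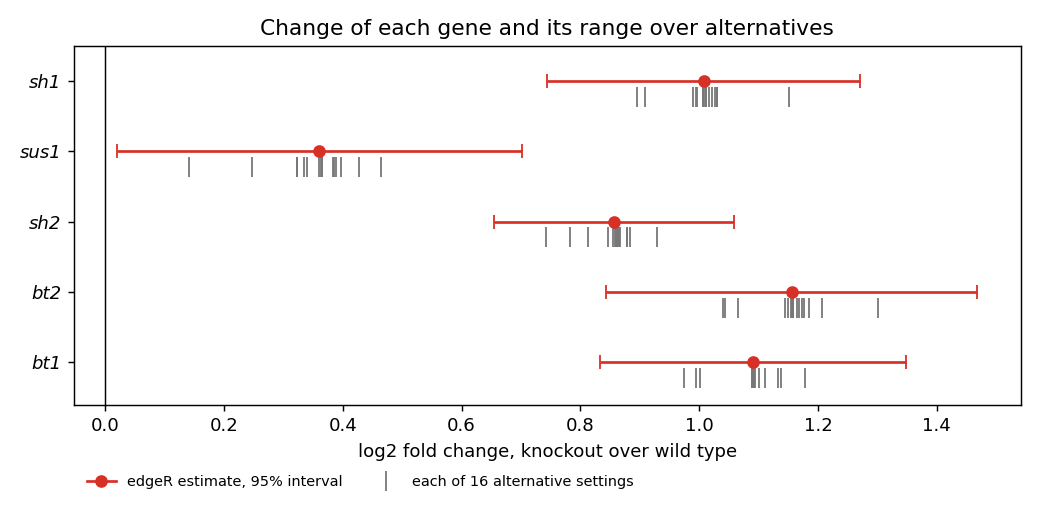
Log2 fold change of each gene, knockout over wild type, as the edgeR estimate with its 95% interval (red) and as the values under each of 16 alternative settings (grey ticks). The ticks of sh1, sh2, bt2 and bt1 lie between 0.74 and 1.30, and those of sus1 between 0.14 and 0.47.

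Non-overlap of the libraries with the knockout higher was found for 4 of the 5 genes, against 10.8% of all tested genes. In size, the log2 fold changes of bt2, bt1, sh1 and sh2 were higher than those of 98.6%, 98.4%, 98.1% and 97.2% of the tested genes. That of sus1 was higher than 89.8% of them, on a value that did not pass the test. Both comparisons are with all tested genes, and neither was made among genes of like abundance. By adjusted p, 19.1% of the 1000 most abundant genes and 52% of the 100 most abundant rose. The share of 10.8% is thus not the nearest background for the 4 genes that rose.

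**Figure D3:**
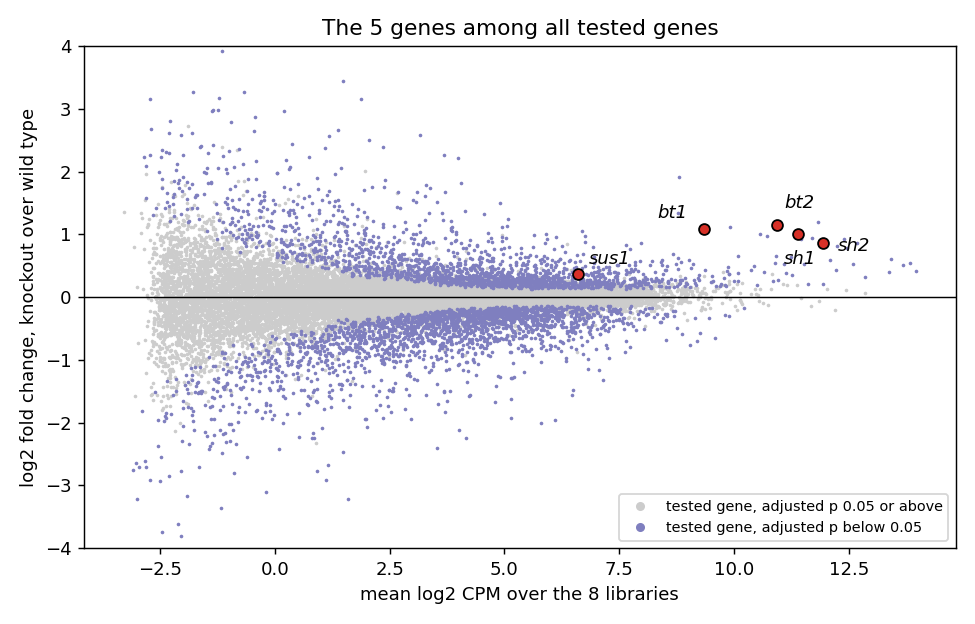
Log2 fold change (knockout over wild type) against mean log2 CPM over the 8 libraries for all tested genes, with the 5 genes marked in red. Genes with an edgeR adjusted p below 0.05 are purple and other tested genes grey, and 14 genes beyond a log2 fold change of 4 in either direction are outside the frame. The 4 genes that rose lie among the higher values of the abundant genes, and sus1 lies at lower abundance and nearer to 0.

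Levels of different genes were compared as TPM, which divides counts by exon length and scales each library to the same total. In wild type, bt2 stood at 867 ± 171 TPM, sh2 at 858 ± 94.9 TPM and sh1 at 811 ± 150.4 TPM (SD, n = 4), and these 3 levels lay within each other's spread. The carrier bt1 followed at 427 ± 54.3 TPM, below each of the 3 in every library. The level of sus1, 31.0 ± 2.96 TPM, was 13.8 times lower than that of bt1. Per exon base, sh1 exceeded sus1 by 19.3 to 35.5 times in the wild type libraries.

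In the knockout the order was bt2 at 1663 ± 132 TPM, sh1 at 1407 ± 49.9 TPM, sh2 at 1338 ± 44.2 TPM, bt1 at 781 ± 68.9 TPM and sus1 at 34.4 ± 11.3 TPM (SD, n = 4). Here bt2 exceeded sh1 in 4 of 4 libraries and the ranges did not overlap, whereas sh1 and sh2 overlapped. The levels depend on the exon lengths of the annotation, which sums all bases that any annotated transcript form includes. These lengths were 5779 bases for sh2, 4802 for sus1, 4011 for sh1, 2576 for bt2 and 1779 for bt1. For sh2 a single block of exon sequence ran over 3518 bases and the annotation lists 312 exon lines, against 41 for bt2, so that the TPM of sh2 is lowered if its longer forms are rare. The annotation also lists many exon lines for sh1 (282) and sus1 (231). The same limit applies to their TPM and to the size of the sh1 to sus1 ratio. None of the 5 genes shares exon bases with another gene of the table, on either strand.

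Ratios between genes within a library do not depend on how libraries are scaled. The ratio of sh2 to bt2, large to small subunit in counts per exon base, was 0.848, 0.838, 0.742 and 0.802 in the knockout and 0.989, 1.10, 1.05 and 0.879 in wild type. The groups did not overlap, and the ratio was 1.24-fold lower in the knockout. The exact permutation test (two-sided, 4 libraries against 4) gave p = 0.0286, the smallest this design allows, and 0.0571 after adjustment over the 2 ratios tested, which misses 0.05. With so few libraries the adjusted value could fall below 0.05 only if both ratios reached the smallest p. The miss is therefore set by the design and the other ratio, and does not show that the sh2 to bt2 ratio was unchanged. The absolute ratio rests on the exon lengths, and the difference between groups does not.

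The ratio of sh1 to sus1 was 47.2, 28.2, 55.3 and 44.0 in the knockout and 27.2, 19.3, 24.3 and 35.5 in wild type. The groups overlapped, since knockout replicate 2 fell among the wild type libraries. The mean was 1.63-fold higher in the knockout on the log2 scale (exact permutation test, two-sided, p = 0.0571, unchanged by the adjustment), which does not pass the threshold.

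The other 8 pairs were not tested. The ratio of bt2 to bt1 was 2.10 to 2.20 in the knockout and 1.90 to 2.22 in wild type, and the groups overlapped. The ratio of sh2 to bt1 was 1.56 to 1.85 in the knockout and 1.92 to 2.11 in wild type, with no overlap. The ratio of sh1 to sh2 overlapped, at 0.999 to 1.09 and 0.877 to 1.06.

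**Figure D4:**
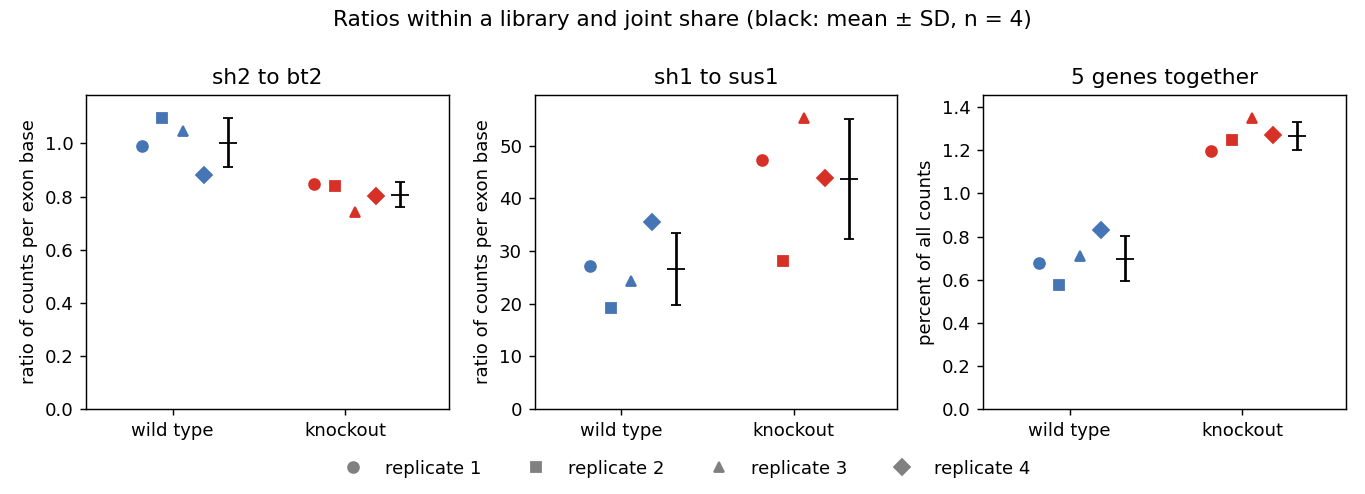
Ratio of sh2 to bt2 and of sh1 to sus1 (counts per exon base) and the share of all counts taken by the 5 genes together (percent), for each library, wild type in blue and knockout in red, with the mean and SD of 4 libraries in black. The sh2 to bt2 ratio is lower in every knockout library, the sh1 to sus1 ratio overlaps, and the joint share does not overlap.

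Together the 5 genes took 1.20%, 1.25%, 1.35% and 1.27% of all counts in the knockout libraries, and 0.676%, 0.574%, 0.708% and 0.831% in the wild type libraries. The means were 1.27% ± 0.064 and 0.697% ± 0.106 (SD, n = 4), a ratio of 1.81. No test was made of this joint value.

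Libraries of one genotype also differed, and in wild type the 4 abundant genes moved together. In wild type, sh1, sh2, bt2 and bt1 were each lowest in replicate 2 and highest in replicate 4. In replicate 2 they stood 0.25 to 0.39 below the wild type mean on the log2 scale (sh1 -0.34, sh2 -0.25, bt2 -0.39, bt1 -0.30). In replicate 4 they stood above it by 0.38, 0.20, 0.39 and 0.25 in the same order.

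By CPM the same 4 genes were each highest in knockout replicate 3. There bt2 and bt1 stood 0.25 and 0.26 above the knockout mean on the log2 scale, and sh1 only 0.06. For sh1 and sh2 this depended on the scaling. By TPM, sh1 was lowest in replicate 3 (1348) and sh2 was highest in replicate 2 (1367). By TPM, bt2 and bt1 were still highest in replicate 3 (1818 and 862). The TMM factor of that replicate, 0.929, was the lowest of the knockout. The gene sus1 did not follow these 4 genes. It was lowest in knockout replicate 3 (-0.33) and highest in knockout replicate 2 (0.55), and in wild type it was highest in replicate 2 (0.09). Wild type replicate 2 was also the library with the most counts, and the part of depth in its low values was not tested. Without it the 4 genes still rose (sh1 1.88-fold, edgeR adjusted p = 0.000438).

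**Figure D5:**
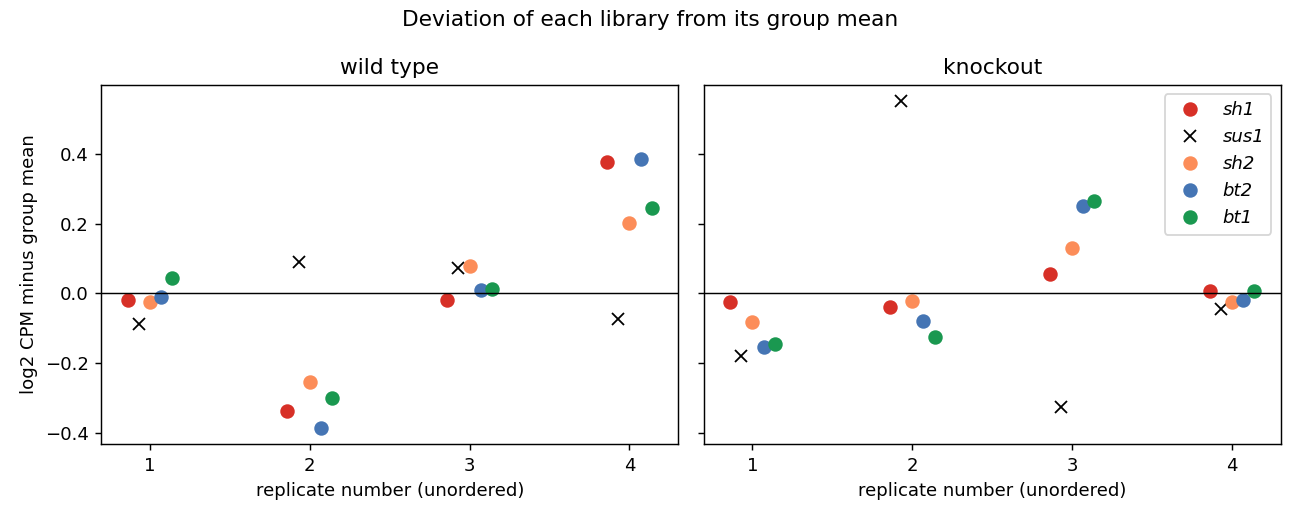
Log2 CPM of each gene minus its mean over the 4 libraries of the group, by replicate number, for wild type (left) and knockout (right). In wild type the 4 abundant genes (filled circles) lie together low in replicate 2 and high in replicate 4, and sus1 (crosses) does not follow them.

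The chromosome neighbours of the 5 genes were looked at as well, as the nearest tested gene on either side. Of these 10 genes 1 rose and 0 fell, against 18.6% of all tested genes that changed in either direction. Their log2 fold changes lay between -0.20 and 0.43, at distances of 828 to 811117 bases. The one that rose was Zm00001d050033, 43499 bases from bt2 (1.35-fold, edgeR adjusted p = 0.0273). At an unadjusted p below 0.05 edgeR put 1 of them higher and 2 lower in the knockout, and DESeq2 and limma-voom also gave 1 that rose and 0 that fell after adjustment. The gene Zm00001d045043, 828 bases from sh1, stood at 1.01-fold (edgeR adjusted p = 0.961).

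Over the 8 libraries, the genes whose log2 CPM was most like that of the members, by the mean of the Pearson correlations with the 5 of them among 16329 other genes, were Zm00001d047506 and Zm00001d046226, both with a mean of 0.90. The table gives neither a name. Their correlations with sh1, sh2, bt2 and bt1 were 0.96 to 0.99, and with sus1 0.59 and 0.55. Both were higher in the knockout, at 59.6 ± 2.45 CPM against 37.5 ± 2.65 CPM and at 19.7 ± 1.73 CPM against 6.94 ± 1.39 CPM (SD, n = 4). These correlations include the difference between the genotypes and are given as a description.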

How the data were processed

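Counts of 8 RNA-seq libraries, 4 per genotype, were analysed. The labels' protocols state a Trizol and then a column purification of total RNA, with DNase, and paired-end sequencing on an AVITI instrument (Element). HISAT2 and Trimmomatic 0.39 are named in the submitters' processing notes. The deposited values are raw read counts per gene. Per the file headers they come from featureCounts 2.0.1 with an A188 annotation and no option for strand, pairs or multi-mapping reads, so reads that align to several places were left out.

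Genes were kept by filterByExpr, which left 22014 genes with 99.96% of the counts. They were scaled by TMM and tested across the whole table with edgeR 4.0.16 in R 4.3.3 (quasi-likelihood test, Benjamini-Hochberg adjustment over all tested genes, threshold 0.05). Standard errors were derived from the F statistic. Alternatives used DESeq2 1.42.0, limma 3.58.1, other scalings and filters, a replicate block and each library left out. The procedure was run on simulated counts in which few genes changed, in random directions. That run does not cover data like these, where 18.6% of tested genes changed and the scaling factors moved with genotype. The 5 members and the planned lists were chosen with earlier results of these data known, and the neighbouring genes and untested ratios after the values were seen. Named genes are the 5 members, and the 2 genes most like them (Pearson correlation, mean log2 CPM of at least 1, prior count 2). A gene neighbouring a member is named where it passed the threshold or lay nearest. Pathway and marker lists planned by symbol matched 0 IDs and were not analysed here. RefSeq names come from a table of 49888 genes. No sequence is printed.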

Additional observations from a re-analysis of the deposited data

Results flagged for a closer look

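Among 18 sets of 4 values (the 5 genes, 2 ratios, the joint share and the library total, in each genotype), 1 held a library far from the rest of its group, and chance flags about 1 set in 20. It was the total of wild type replicate 2, at 80577963 counts, where the other 3 of its group had 58330218 to 61613873. No level of a member was far enough from its group by this measure. The nearest was sus1 in knockout replicate 2, whose gap to the next library was 0.744 of the group's range.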

How the results depend on the processing

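The rises of sh1, sh2, bt2 and bt1 kept their direction and an adjusted p below 0.05 in all 16 alternatives, with folds of 1.86 to 2.22, 1.67 to 1.90, 2.06 to 2.46 and 1.96 to 2.26. TPM was not among these alternatives, and mean TPM of knockout and wild type gave smaller rises. The means were 1407 against 811 for sh1, 1338 against 858 for sh2, 1663 against 867 for bt2 and 781 against 427 for bt1. In the edgeR fit with each library left out, the log2 fold changes of the 4 genes were 0.91 to 1.15, 0.78 to 0.93, 1.04 to 1.30 and 0.99 to 1.18. In these fits 4 to 5 members rose and 0 fell. The value of sus1 lay between 0.14 and 0.47 without each library and passed the threshold only without knockout replicate 3 (0.47, edgeR adjusted p = 0.0496). That replicate held the lowest sus1 level of the knockout (87.1 CPM), and the cause of its low level was not tested. The adjusted p of sus1 was 0.29 with library totals, 0.242 with DESeq2 and 0.17 with limma-voom. The log2 ratios lay between 0.57 and 0.91 (sh1 to sus1) and between -0.37 and -0.27 (sh2 to bt2) without each library, with exact permutation p of 0.0571 to 0.114 after adjustment over both ratios. The ratio of joint shares, 1.81, was 1.71 to 1.94 without each library (1.71 without wild type replicate 2, 1.94 without wild type replicate 4). It was 1.94 when the 100 most abundant other genes were taken out of the counts, and 1.74 as a share of TPM. Over all tested genes, 1873 rose and 2213 fell, and with library totals 1032 and 4743. With the replicate number as a block, 4 members rose (sh1 log2 fold change 1.03) and 1333 genes rose in all, and the paired exact sign-flip test of either ratio gave p = 0.125, the smallest it allows. The correlation of deviations between same-numbered libraries was 0.10, 0.10, -0.05 and -0.13 across genes, and 2 of 8 libraries were closest to their own number. With 4 libraries per group this check can neither show nor exclude that the numbers pair the samples, and the labels do not say. The main fit did not pair them, and the block is given as an alternative.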
